A study of Mus musculus with 8 samples.

Results

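The cells described here are pancreatic CD8 T cells that carried RNA of the chemokine Ccl5 and of at least 1 tissue-residency gene. Itga1 encodes integrin alpha 1 (CD49a), which binds collagen, Itgae encodes integrin alpha E (CD103), which binds E-cadherin, and Cxcr6 encodes the receptor for the chemokine CXCL16. Members were chosen by measured transcripts of these and other genes. A cell was a member when it had at least 500 detected genes, under 10% mitochondrial transcripts, at least 2 unique molecular identifiers (UMIs, each marking 1 captured transcript) over 6 T cell genes, Cd8a or Cd8b1 but no Cd4, at least 1 UMI of Ccl5 and at least 1 UMI over Itga1, Itgae and Cxcr6. Fewer than 2 of the 5 checkpoint genes Pdcd1, Lag3, Tigit, Havcr2 and Tox could be detected. The rule took 3674 cells, of 24690 CD8-gated T cells and 77486 cells kept in all.

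Resident memory CD8 T cells stay in tissues such as skin, gut and salivary gland after an immune response and do not recirculate through blood. They are known for integrins that anchor them, for low expression of the egress receptor gene S1pr1 and the factor gene Klf2 that drives it, and for rapid release of interferon-gamma. In NOD mice, which become diabetic spontaneously, CD8 T cells infiltrate the islets and kill insulin-producing beta cells. The name resident-like rests here on transcripts alone, since no transfer or parabiosis was part of the data.

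The 8 single-cell libraries held CD45+ CD3+ TCR-beta+ cells sorted from pancreas of NOD mice labelled female and diabetic. There was 1 library of mice with active diabetes (blood glucose over 600 mg/dl) and 1 of mice at onset (250 mg/dl), both 3 to 4 months old, untreated and harvested on day 1. The other 6 came from new-onset mice (200 to 300 mg/dl) given vehicle (ethanol, Tween 20 and PEG300) or PPCA, with 1 library per arm on each of days 2, 3 and 4. Their age is given as 3 to 4 months in the sample labels and 3 to 5 in the treatment notes. PPCA was a daily dose of 50 mg/kg nutlin-3, an inhibitor of MDM2, and 25 mg/kg MK-1775, an inhibitor of the kinase WEE1. The sorted cells were frozen, and neither the number of mice per library nor any pooling is stated, so p-values below measure the spread between libraries only.

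The libraries held 7023 to 13129 barcodes each, of which 224 to 749 were members, and the members of a library summed to between 1249331 and 3379600 UMIs. Of all distinct barcodes 0.928% occurred in more than 1 library, and 2 of 3672 member barcodes did. The labels call every mouse female, but members of 4 libraries (vehicle days 2 and 3, PPCA days 3 and 4) had Y-linked transcripts at 193 to 286 CPM (share of all UMIs in a summed library, times 1000000) and Xist at no more than 1.60 CPM. Members of the other 4 had Xist at 721 to 908 CPM and Y-linked transcripts at no more than 0.296 CPM. The arms of days 2 and 4 therefore differed in sex-linked transcripts, in opposite directions, and those of day 3 did not.

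Cxcr6 was the residency gene most often detected, in 88.1% of members. Itga1 was detected in 39.1% and Itgae in 31.8%. Cxcr6 was the only one of the 3 genes found in 1567 members (42.7%), all 3 genes in 471 (12.8%), Itgae alone in 303 and Itga1 alone in 104. A single UMI over the 3 genes was the whole basis of the call in 967 members (26.3%). Their median was 7 Ccl5 UMIs, against 34 in members with 2 or more and 3 in Ccl5-positive cells just outside, with none. At the other threshold, the 1551 members with 1 checkpoint gene had a median of 34 Ccl5 UMIs, and the cells just outside with 2 had 64.

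Levels of the genes in the rule are a description, with no test, since they chose the cells. In members Ccl5, a chemokine that draws T cells and macrophages, ranged over the 8 libraries from 4696 CPM (active) through a median of 7574 to 10610 CPM (PPCA day 4). Cxcr6 ranged from 360 (vehicle day 3) through 473 to 844 CPM (PPCA day 2). Itga1 ranged from 110 (vehicle day 3) through 158 to 262 CPM (onset), and Itgae from 76.0 (PPCA day 3) through 112 to 140 CPM (vehicle day 4). No library was highest for more than 1 of these 4 genes.

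Promoters of 6 genes of the rule or the results were searched for the RUNX core TGTGGT, the AP-1 site TGACTCA and the T-box core GGTGTGA, and those of Cxcr6 and Gzmk are shown because they held a match. Those of Itga1, Ifng, Ccr9 and Eomes held none of these letters in this window. Cxcr6 is the residency gene most often detected, and Gzmk, like Eomes and Ccr9, differed between members with and without Itgae. Each sequence runs 5′ to 3′ from 250 bases before to 50 bases after the RefSeq start (build GRCm38.p6), at chr9:123806227-123806526 on the plus strand for Cxcr6 and at chr13:113180916-113181215 on the minus strand for Gzmk. Capitals mark a match to the RUNX core TGTGGT, here on the opposite strand, in Cxcr6 and to the T-box core GGTGTGA in Gzmk.
Cxcr6: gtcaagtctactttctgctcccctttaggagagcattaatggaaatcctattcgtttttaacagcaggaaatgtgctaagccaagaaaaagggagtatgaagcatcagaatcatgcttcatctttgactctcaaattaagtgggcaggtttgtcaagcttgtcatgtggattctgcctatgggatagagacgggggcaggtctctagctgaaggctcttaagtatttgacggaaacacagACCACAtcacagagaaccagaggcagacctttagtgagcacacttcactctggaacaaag
Gzmk: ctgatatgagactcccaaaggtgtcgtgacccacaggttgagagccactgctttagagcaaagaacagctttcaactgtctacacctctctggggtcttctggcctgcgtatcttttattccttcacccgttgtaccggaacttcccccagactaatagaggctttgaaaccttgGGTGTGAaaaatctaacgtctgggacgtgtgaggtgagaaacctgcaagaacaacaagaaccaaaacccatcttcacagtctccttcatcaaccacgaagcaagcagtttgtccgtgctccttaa
Searched on both strands, TGTGGT occurred in 16.9% of 27025 promoters of this length, TGACTCA in 5.17% and GGTGTGA in 3.96%. No motif contains another, and a match is a description, not a bound site.

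Members ranged widely in Ccl5. Of the 3674 members, 676 (18.4%) had exactly 1 Ccl5 UMI and 168 had 2 to 4, whereas 1208 (32.9%) had 20 to 49 and 355 had 100 or more. The 844 members with under 5 Ccl5 UMIs had a median of 6291 UMIs in all, against 4049 in the other 2830 members, so they were the deeper cells. Their share was 8.88% of members in the PPCA library of day 4 and 41.9% in the active library.

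**Figure D1:**
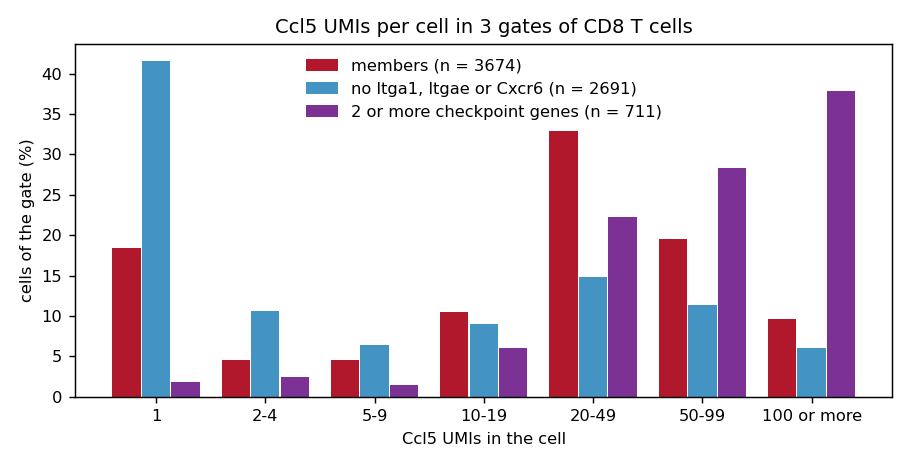
Share of the cells of a gate (percent, vertical axis) by the Ccl5 UMIs of the cell (horizontal axis), pooled over 8 libraries, for members, cells without Itga1, Itgae or Cxcr6, and cells with 2 or more checkpoint genes. Bins differ in width, so bar heights are not densities. Of members 18.4% had exactly 1 UMI and 32.9% had 20 to 49.

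The members with little Ccl5 were close to Ccl5-negative CD8 cells in Ccr7 and Gzmk, and lay between these and the other members in S100a4. Ccr7, a chemokine receptor of lymph node homing, averaged 255 CPM over 8 libraries in members with under 5 Ccl5 UMIs, 67.2 CPM in members with 5 or more and 264 CPM in CD8 cells with neither Ccl5 nor a residency gene. S100a4, a calcium-binding protein of activated and memory T cells, averaged 92.3, 1150 and 4.83 CPM in the same order. The granzyme gene Gzmk averaged 2.91, 185 and 0.492 CPM. Ranges over libraries of members with under 5 and with 5 or more Ccl5 UMIs did not overlap for Ccr7, S100a4 or Gzmk. These are descriptions of a split on a rule gene, chosen after its distribution was seen.

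A 1-UMI call can come from free RNA, so detection was compared at 2000 UMIs per cell. Cells with fewer UMIs were left out, and all gates were set again on the thinned counts. A thinned gate thus holds other cells than the gate of the same name. Ccl5 was then detected in 24.9% ± 10.5 of CD8-gated cells and 6.05% ± 2.73 of CD4-gated cells (SD, n = 8 libraries), at median depths of 4376 to 7289 and 3900 to 6199 UMIs before thinning. At least 1 residency gene was detected in 54.3% ± 10.0 of CD8-gated cells with Ccl5, 17.8% ± 4.81 of those without, 15.8% ± 2.41 of CD4-gated cells with Ccl5 and 2.04% ± 0.503 of CD4-gated cells without. CD8 cells without Ccl5 were above CD4-gated cells without Ccl5 in all 8 libraries. They were below CD4-gated cells with Ccl5 on day 4, at 11.9% against 14.7% under vehicle and 9.55% against 16.4% under PPCA. How much of the single-UMI Ccl5 calls was free RNA was not tested.

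The question of which other genes accompany the residency genes was asked by comparing members with the 2691 CD8 cells that met every condition except that Itga1, Itgae and Cxcr6 were at 0. Members had more S100a4, S100a6 and Itgb1 transcripts and more of most tested cytokine and NK-type receptor genes, and less of most tested exit and naive genes, in the same libraries. UMIs were summed per library and gate, which makes 8 pairs, and values in this comparison are CPM scaled by edgeR's TMM factors. Exceptions are summed lists and the levels of Ighm, Cd79b, Fcer1g, Trdc and Pdcd1, which are unscaled CPM. With the library as block and a threshold of 0.05 on the adjusted p, 2187 of 8612 genes passed in edgeR (25.4%), 1035 higher in members (12%) and 1152 lower (13.4%). Of the comparison cells 41.6% had exactly 1 Ccl5 UMI and 10.6% had 2 to 4, against 18.4% and 4.57% of members. The gates thus differed in Ccl5 as well as in the residency genes. Among cells with at least 5 Ccl5 UMIs in both gates, 1617 genes were called. Counts per gene list below are for all cells of both gates and were not made with that minimum.

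S100a4 ranged from 463 (PPCA day 3) through a median of 690 to 1201 CPM (onset) in members and from 19.8 to 119 CPM in cells without a residency gene. The groups did not overlap, and the difference was +3.80 on the log2 scale (SE 0.13, edgeR adjusted p = 1.03e-20), or +3.11 among cells with at least 5 Ccl5 UMIs and +2.65 with cells thinned to 2000 UMIs. Its relative S100a6 ranged from 887 through 1391 to 1722 CPM against 96.0 to 482 CPM, at +2.58, or +1.97 and +1.85 under the same alternatives. With gates set again at 2000 UMIs per cell, which left 154 to 622 members a library, S100a4 was detected in 66.8% of members. It was in 13.5% of cells without a residency gene and 0.558% of cells with neither Ccl5 nor a residency gene.

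The 10 highest differences under the naming rule also held Cdh1 (+3.56), Lgals3 (+2.94), Capg (+2.72), Cish (+2.55), Osbpl3 (+2.38) and Ccr2 (+2.31). Cdh1 encodes E-cadherin, the ligand of CD103, and ranged from 28.9 through 43.4 to 61.1 CPM in members and from 0.779 to 6.14 CPM outside. Lgals3 encodes galectin-3, Capg an actin-capping protein and Cish a suppressor of cytokine signalling. The chemokine receptor gene Ccr2 ranged from 100.4 through 116 to 181 CPM in members and from 14.4 to 37.0 CPM outside. Neither range overlapped between the groups. Thinned to 2000 UMIs, Cdh1 was at +2.71, Lgals3 at +2.10, Capg at +2.04 and Osbpl3 at +1.78. With at least 5 Ccl5 UMIs Lgals3 was at +2.33, Osbpl3 at +1.74 and Ccr2 at +1.71.

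Of 24 residency genes listed beyond the rule's own, 21 passed the low-count filter and 17 of these were higher and 2 lower in members, with a median log2 difference of 0.88 against -0.00 over all genes tested. The higher ones include Litaf, which reached the filter's minimum in members alone and so had to differ. Prdm1, which encodes Blimp-1, had a median of 29.2 CPM in members and 8.44 CPM outside (+1.70, SE 0.12). Bhlhe40, a transcription factor of resident cells, was at +1.65, and Rgs1, which dampens chemokine receptor signals, at +2.02. Runx3, a factor of CD8 identity and residency, differed little (+0.19, SE 0.04, 301 against 269 CPM in the median). P2rx7, the receptor for extracellular ATP, was at +0.81, and Ahr, the aryl hydrocarbon receptor, at +1.14 with 7 of 8 libraries higher.

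The residency genes that went the other way were Cd69, which opposes S1P receptor 1 at the surface, and Vps37b, a sorting factor. Cd69 ranged from 134 (PPCA day 2) through 466 to 922 CPM (PPCA day 4) in members and from 177 through 522 to 1254 CPM outside. It was lower in members in 7 of 8 libraries (-0.26, SE 0.05, edgeR adjusted p = 0.000236), while the ranges overlapped widely. With gates set again at 2000 UMIs per cell, Cd69 was detected in 50.6% of members and 55.7% of cells without a residency gene. The share was 50.4% in cells with neither Ccl5 nor a residency gene. Zfp683, which encodes Hobit, was near absent, with 1 to 6 UMIs in all members of a library, and did not pass the filter.

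Of 12 listed genes of tissue exit and recirculation, 10 were tested and 6 were lower and 1 higher in members (median -0.70). S1pr1 ranged from 171 through 221 to 290 CPM in members and from 310 through 370 to 420 CPM outside, without overlap (-0.73, SE 0.07, edgeR adjusted p = 1.92e-09). Klf2 was at -0.80 and Ccr7 at -0.85, each lower in 8 of 8 libraries. With gates set again at 2000 UMIs per cell, Ccr7 was detected in 8.12% ± 1.75 of members and 24.0% ± 4.59 of cells without a residency gene. Among cells with at least 5 Ccl5 UMIs these differences were larger, at -1.04 for S1pr1, -1.14 for Klf2 and -1.09 for Ccr7. With cells thinned to 2000 UMIs they were at -1.86, -1.66 and -1.97.

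**Figure D2:**
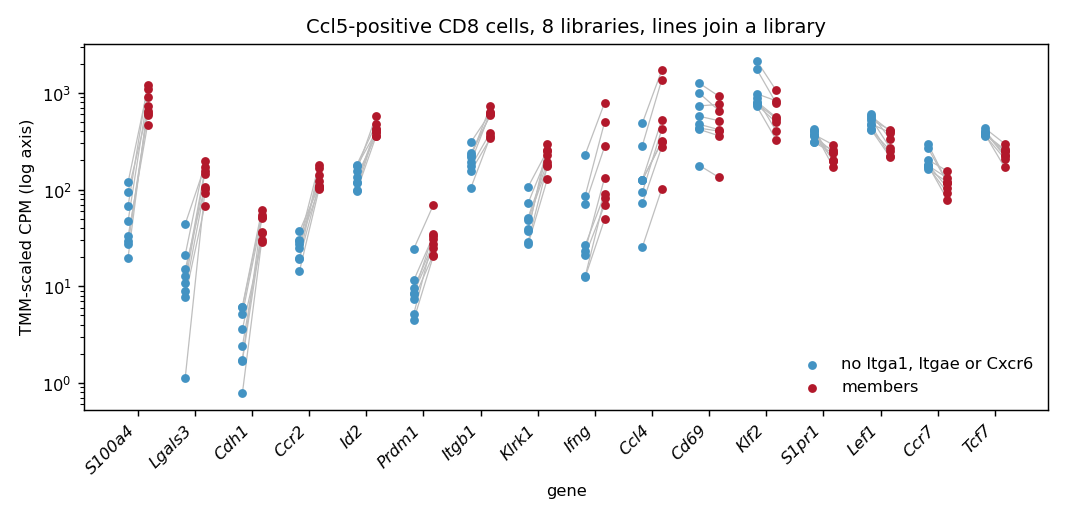
TMM-scaled CPM (log axis) of 16 genes in members and in Ccl5-positive CD8 cells without Itga1, Itgae or Cxcr6; each point is 1 library and grey lines join the gates of a library. S100a4, Cdh1, Ccr2 and Id2 do not overlap between the gates, and Cd69 does.

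All 10 genes of the naive and stem-like list were tested and lower in members (median -0.68). Tcf7, which encodes TCF-1, ranged from 170 through 239 to 298 CPM in members and from 361 through 372 to 428 CPM outside (-0.72). Lef1 was at -0.73 and Id3, an inhibitor of E proteins, at -1.34. Il7r, the interleukin-7 receptor chain, was at -0.21 and lower in 6 of 8 libraries, and its call was lost without PPCA day 4 (-0.14, edgeR adjusted p = 0.057). At 2000 UMIs per cell Tcf7 was at -1.51, Lef1 at -1.53 and Il7r at -0.93. Igfbp4 was at -0.43, at -1.30 when thinned and at +0.53 among cells with at least 5 Ccl5 UMIs, so no direction is read for it.

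B cell transcripts moved with the naive genes. All 3 tested B cell genes were lower in members by edgeR and 2 by DESeq2, among them Ighm, the IgM heavy chain (-0.90, medians of 106 against 190 CPM), and Cd79b, a B cell receptor chain (-0.93, 11.8 against 18.6 CPM). The summed list of 6 genes, none at 0 in all libraries, was 57.0 to 172 CPM in members and 108 to 315 CPM outside. Without the cells that held more than 1 UMI over 6 B cell and myeloid genes or had the top doublet scores, S1pr1 was at -0.83, Lef1 at -0.84 and Ccr7 at -1.04.

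Id2, like Id3 an inhibitor of E proteins and a gene of effector and resident cells, ranged from 356 through 408 to 576 CPM in members and from 95.5 through 128 to 178 CPM outside (+1.64, SE 0.07, edgeR adjusted p = 1.56e-18). Of the 11 tested genes of its list of effector and memory factors, 6 were higher and 3 lower. Zeb2 was at +1.19, and at +0.49 among cells with at least 5 Ccl5 UMIs. Tbx21, which encodes T-bet, was at +0.43, and its call was lost among those cells (+0.02, edgeR adjusted p = 0.954) and at 2000 UMIs per cell (+0.26, edgeR adjusted p = 0.318). Eomes was at -0.21, at -0.52 with at least 5 Ccl5 UMIs and at -0.05 when thinned, where its call was lost (edgeR adjusted p = 0.753). It was also lost without the active, PPCA day 3 or vehicle day 4 library (edgeR adjusted p from 0.053 to 0.072), and that of Tbx21 without PPCA day 4 (0.054).

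Members carried more effector message. Of 10 tested chemokines and cytokines 6 were higher and 0 lower (median 1.08). The other 4 did not pass. Ifng ranged from 49.4 (active) through 111 to 790 CPM (PPCA day 4) in members and from 12.4 through 24.9 to 230 CPM outside. It was higher in members in 8 of 8 libraries (+2.07, SE 0.08, edgeR adjusted p = 3.44e-19), although the ranges overlapped, and both gates were highest on day 4. Ccl4 was at +1.88, Ccl3 at +1.74, Tnf at +1.42, Xcl1 at +0.74 and Csf1, the macrophage growth factor gene, at +4.14 from a low level (6.94 to 20.7 CPM in members and at most 1.26 CPM outside). Csf1 reached the filter's minimum of 5.37 CPM in members alone and so had to differ, and without it 5 of 9 were higher. Ifng was at +1.44 among cells with at least 5 Ccl5 UMIs and +1.58 at 2000 UMIs per cell. With at least 5 Ccl5 UMIs Ccl4 was at +1.18, Ccl3 at +1.06 and Xcl1 at +0.24.

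Of 13 tested cytotoxic granule genes 9 were higher and 1 lower (median 0.48). Fasl, the death ligand, was at +2.23, Gzmb at +1.73, Gzmk at +1.19 and Nkg7 at +0.58. At 2000 UMIs per cell Gzmb was at +0.77 and Gzmk at +0.74, and among cells with at least 5 Ccl5 UMIs Gzmk was at +0.50 and Nkg7 at +0.36. Gzmm was lower in 8 of 8 libraries (-1.09), at 38.7 CPM in the median of members against 74.4 outside, and was at -2.31 when thinned. Perforin (Prf1) differed by +0.23 only, and by +0.08 among cells with at least 5 Ccl5 UMIs. Gzma was at +1.89 with all UMIs and at -1.50 when each cell was thinned to 2000 UMIs, so no direction is read for it.

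Of 9 tested NK-type receptors 7 were higher and 1 lower. Klrk1, which encodes the activating receptor NKG2D, ranged from 130 through 210 to 296 CPM in members and from 27.1 through 43.7 to 106 CPM outside (+1.97, SE 0.11). Klrc1 and Klrc2, which encode NKG2A and NKG2C, were at +1.72 and +1.68. Among cells with at least 5 Ccl5 UMIs Klrk1 was at +1.34, Klrc1 at +1.09 and Klrc2 at +1.03. Klra7 was lower (-1.61), as was its relative Klra1 (-1.29), both Ly49 receptors. The summed list of 7 NK and innate-like genes had a median of 12.6 CPM in members (0.545 to 24.3) and 4.402 CPM outside (0.530 to 14.7), and none of the 7 passed the low-count filter. Fcer1g had a median of 8.203 CPM in members and 0.574 CPM outside, and Ncr1 had 0 to 22 UMIs in the members of a library. Klrb1c was at 0 UMIs in 6 of 8 libraries and Zbtb16 at 1 UMI at most, and 1 gene of the list was at 0 in all. The part of such cells in the differences was not tested.

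Of 11 adhesion genes tested 9 were higher and 1 lower. Itgb1, the integrin chain that pairs with alpha 1, ranged from 339 through 594 to 724 CPM in members and from 105 through 206 to 309 CPM outside (+1.38, SE 0.06, edgeR adjusted p = 2.76e-17). Itgal, the LFA-1 chain, was at +0.55 and Itga6 at -0.55. Itgb7, which pairs with alpha E, was the member of the list that did not pass the test. It is also on the residency list. Lists can share genes, so their counts are not independent. Of 6 chemokine receptors tested 3 were higher, Ccr2 and Cxcr3 (+1.07) among them, and Cxcr4 (-0.31) and Cxcr5 (-1.91) were lower. The call of Cxcr4 was lost at 2000 UMIs per cell (-0.22, edgeR adjusted p = 0.203).

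Of 13 checkpoint and costimulation genes outside the rule, 7 were higher and 1 lower in members, the higher ones including Cd101, which reached the filter's minimum in members alone. Ctla4 was at +1.31, Entpd1, which encodes CD39, at +2.26 and Cd38 at +1.49. Members and the comparison cells both had fewer than 2 of the 5 rule checkpoints, and Pdcd1 averaged 14.3 CPM in members and 2.52 CPM outside, a description since it was part of the rule. Mki67, a gene of dividing cells, ranged from 7.24 through 9.39 to 17.9 CPM against at most 5.37 CPM outside (+2.20, or +1.56 with at least 5 Ccl5 UMIs).

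Transcripts of the T cell receptor gamma locus were higher in members than in cells without a residency gene, all sorted for surface TCR-beta. With all UMIs they were higher again in cells with more checkpoints, a difference that did not pass at 2000 UMIs per cell, as given with that comparison. Tcrg-C2 ranged from 72.5 through 120 to 222 CPM in members and from 2.26 to 13.1 CPM outside (+3.90, SE 0.13, edgeR adjusted p = 1.47e-20). Tcrg-C4 was at +2.99 and the segment Trgv2 at +3.86. Thinned to 2000 UMIs the 3 were at +2.90, +2.11 and +2.83. Trdc, the delta constant gene that defines gamma-delta T cells, had 2 to 26 UMIs in all members of a library, or 1.13 to 14.2 CPM. The summed list of gamma-delta genes was 111 to 356 CPM in members and 7.42 to 29.7 CPM outside. Of 7 listed genes 5 are in the files and 1 was at 0 in all libraries. Reads of near-identical gamma constant genes may be split between copies.

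Ribosomal protein genes were lower in members, 81 of 87 tested, and 1 was higher. Members also had fewer UMIs per cell than cells without a residency gene in 8 of 8 libraries, with medians of 3402 to 6832 against 4845 to 8043. Of 13 early response genes tested 2 were higher and 3 lower (median 0.01), and of 12 interferon genes 1 was higher and 3 lower (median -0.14). The part of depth in the other differences was not tested beyond thinning, under which 1454 genes were called. Thinning also changed which cells a gate held.

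Against CD8 cells with neither Ccl5 nor a residency gene and under 2 checkpoints (11092 cells), 3808 of 9600 genes were called by edgeR (39.7%), 1827 higher (19%) and 1981 lower (20.6%). All 8 tested NK-type receptors and 12 of 13 cytotoxic genes were higher in members, and 9 of 10 naive genes lower. Of these, 4 NK-type receptors and 3 cytotoxic genes reached the filter's minimum in members alone, and 4 of 4 and 9 of 10 of the others were higher. Markers of other cells moved in this contrast too. Of 3 tested gamma-delta genes 2 were higher in members (median 5.78), Tcrg-C2 (+7.003) and Tcrg-C4 (+5.78), while Trdc was at -0.61 (edgeR adjusted p = 0.105). Tcrg-C4, whose value is the median, reached the filter's minimum in members alone and so had to differ. Of the 2 others 1 was higher. Of 3 B cell genes 2 were lower, Ighm (-1.06) and Cd79b (-1.001), and 1 was higher. The 1 myeloid gene tested, Cst3, was higher (+0.33), and 2 of 4 CD4 and regulatory T genes were lower, with Foxp3 at -0.90. Their part in the other differences was not tested. This contrast shares the member sums with the preceding one.

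How members differ from resident-marker cells with more checkpoints was asked with the 711 CD8 cells that met the rule except that 2 or more of the 5 checkpoint genes were detected. Members had more of most tested exit and naive genes and less of Tox2, Maf and granzyme B. edgeR called 1202 of 7552 genes (15.9%), 603 higher in members (7.98%) and 599 lower (7.93%). With at least 5 Ccl5 UMIs in both gates the count was 755, and after thinning to 2000 UMIs, which left out the vehicle libraries of days 3 and 4, it was 148 of 3426.

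S1pr1 ranged from 186 through 242 to 320 CPM in members and from 44.5 through 91.0 to 117 CPM in cells with more checkpoints, without overlap (+1.42, SE 0.10, edgeR adjusted p = 2.57e-13). Among cells with at least 5 Ccl5 UMIs it was at +1.03. Of 9 tested exit genes 6 were higher and 2 lower, and of 10 naive genes 9 were higher and 0 lower. Lef1 was at +1.45, Tcf7 at +1.27 and Il7r at +1.32. Among cells with at least 5 Ccl5 UMIs Lef1 was at +0.76, Tcf7 at +1.12, Il7r at +1.41 and Ccr7 at +0.65. There Igfbp4 did not pass (+0.06, edgeR adjusted p = 0.887). Gzmm was at +3.04. The gut homing receptor gene Ccr9 was at +2.11, and had too few counts to be tested with at least 5 Ccl5 UMIs or when thinned. It averaged 119 CPM in members with under 5 Ccl5 UMIs and 9.57 CPM in members with 5 or more, beside 90.4 CPM in Ccl5-negative cells.

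Lower in members were Tox2 (-2.66), a relative of the rule gene Tox, Setbp1 (-2.71), Maf (-2.05), which encodes c-MAF, and Gzmb (-2.61). Tox2 ranged from 3.21 through 5.43 to 20.6 CPM in members and from 24.6 through 48.1 to 102 CPM in the other cells, without overlap. Of 9 tested effector and memory factors 7 were lower and 0 higher, among them Eomes (-1.06), Id2 (-0.74) and Batf. Of 9 tested chemokines and cytokines 3 were lower, 0 higher and 6 did not pass. Ccl3 was at -2.00 and Ccl4 at -1.63, and at -1.38 and -0.93 when thinned to 2000 UMIs, where Gzmb was at -1.76. Id2 did not pass when thinned (-0.22, edgeR adjusted p = 0.239). Of 12 tested checkpoint genes outside the rule 9 were lower, with Entpd1 at -1.72 and Ctla4 at -1.12. Mki67 was lower in 8 of 8 libraries (-1.66).

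Residency genes did not separate these gates in 1 direction, with 4 of 21 higher, 6 lower and a median of -0.18. Qpct was higher in members (+0.92) and Prdm1 lower (-1.14), and both calls were lost at 2000 UMIs per cell (+0.63 and -0.55, edgeR adjusted p = 0.525 and 0.237). That of Qpct was also lost without the onset library (+0.70, edgeR adjusted p = 0.057). Cdh1 was at +0.29 (SE 0.14, edgeR adjusted p = 0.193) and Itgb1 at +0.02 (SE 0.09). Ribosomal protein genes were higher in members in 77 of 85. Summed pancreas transcripts had a median of 81.8 CPM in the cells with more checkpoints (37.0 to 3110) and 60.1 CPM in members (14.0 to 119). The upper end was 1 library, vehicle day 3, with 812 CPM of Ctrb1, a digestive enzyme. edgeR called all 3 tested pancreas genes lower in members and DESeq2 called 0, and Ctrb1 was at +0.24 in the libraries with Xist.

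Markers of other T cells also differed between these gates. Levels in this paragraph and of the pancreas transcripts are unscaled CPM. All 3 tested gamma-delta genes were lower in members by edgeR and 2 by DESeq2, with a median of -0.76. Tcrg-C2 had a median of 129 CPM in members and 265 CPM in cells with more checkpoints (-0.76), and differed by +0.06 when thinned to 2000 UMIs (edgeR adjusted p = 0.936). Tcrg-C4 had medians of 44.4 and 111 CPM (-0.74, and -0.18 when thinned, edgeR adjusted p = 0.814). Trdc, which defines gamma-delta T cells, had medians of 3.61 and 0 CPM. Of the CD4 and regulatory T list 1 gene was tested, Ikzf2, which encodes Helios, and it was lower in members (-1.52, medians of 21.8 against 60.3 CPM), while Foxp3 had medians of 3.01 and 2.497 CPM. The B cell gene Ighm was higher in members (+1.79). The part of these and the pancreas transcripts in the other differences was not tested.

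Members were not uniform. The 1170 members with an Itgae UMI were compared with the 2504 without, which were members through Itga1 or Cxcr6. Members with Itgae had more Ccr9, Nrp1, Qpct, Cdh1 and Cd226 and less Eomes, Gzmk, Klre1, Klrc1 and Klrc2. Itgae is a gene of the rule, so the sides differ by construction: every member without it carries Cxcr6 or Itga1, and 303 with it carry neither. The comparison was therefore repeated among members with Cxcr6 on both sides, an alternative chosen after seeing the data, and its values are given beside the results. edgeR called 215 of 7569 genes (2.84%), 100 higher with Itgae (1.32%) and 115 lower (1.52%). Among members with at least 5 Ccl5 UMIs the count was 258, and among those with Cxcr6 it was 442 of 7195. Both tested gamma-delta genes, Tcrg-C2 and Tcrg-C4, were higher with Itgae by edgeR (median 0.54) and neither by DESeq2, and the part of such cells was not tested.

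Eomes, a T-box factor of effector and central memory cells, ranged from 9.88 through 35.1 to 58.8 CPM with Itgae and from 99.6 through 132 to 144 CPM without. The groups did not overlap (-2.05, SE 0.13, edgeR adjusted p = 1.94e-15), and the difference was -1.92 with at least 5 Ccl5 UMIs and -2.40 at 2000 UMIs per cell. Klre1, an NK-type receptor, ranged from 11.9 through 17.9 to 52.5 CPM against 52.9 through 89.0 to 153 CPM (-2.19). Gzmk ranged from 23.6 through 72.2 to 107 CPM against 82.1 through 163 to 238 CPM, lower with Itgae in 8 of 8 libraries (-1.43). Among members with Cxcr6, Eomes was at -2.11, Klre1 at -1.98 and Gzmk at -1.16, and all 3 passed.

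Of 7 tested NK-type receptors 5 were lower and 0 higher with Itgae, among them Klrc2 (-1.22), Klrc1 (-0.94) and Klrk1 (-0.74). Among members with Cxcr6, Klrc2 was at -0.86 and Klrc1 at -0.57, and the calls of Klrk1 (-0.33, edgeR adjusted p = 0.0918) and Klrd1 (-0.23, 0.107) were lost. Of 13 cytotoxic genes 4 were lower and 0 higher, with Prf1 at -0.61 and no overlap between 55.8 to 92.4 CPM and 95.8 to 128 CPM. At 2000 UMIs per cell the call of Prf1 was lost (-0.39, edgeR adjusted p = 0.167), as was that of Il18rap below (-0.38, edgeR adjusted p = 0.649). Sh2d1a, which encodes the adaptor SAP, was at -1.21, Gpr183, an oxysterol receptor, at -1.21 and Il18rap, an interleukin-18 receptor chain, at -1.07. Ccl3 and Ccl4 were lower (-1.01 and -0.72), Tnf was higher (+0.44), and Ifng was at +0.08 (SE 0.07, edgeR adjusted p = 0.71).

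Of 20 tested residency genes 8 were higher and 0 lower with Itgae. Cdh1 ranged from 49.6 through 73.3 to 90.7 CPM with Itgae and from 20.5 through 32.7 to 49.1 CPM without (+1.09, SE 0.11). Thinning to 2000 UMIs gave +0.62. Qpct was at +1.31. Itgb7 was at +0.33 and higher in 8 of 8 libraries, and was at +0.30 without passing when thinned (edgeR adjusted p = 0.0547). Cd226, the activating receptor DNAM-1, was at +0.72. Nrp1, which encodes neuropilin-1, was at +1.34. Ccr9 was at +1.57, and at +1.05 among members with at least 5 Ccl5 UMIs. With Cxcr6 on both sides Cdh1 was at +1.46, Qpct at +1.72, Cd226 at +0.89, Nrp1 at +1.61 and Ccr9 at +0.89, and all 5 passed.

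The naive genes Lef1 (+0.27) and Ccr7 (+0.37) were higher with Itgae over all members. Among members with at least 5 Ccl5 UMIs they were at -0.34 and -0.22, and among members with Cxcr6 at -0.29 (edgeR adjusted p = 0.00744) and -0.29 (0.0552). Over all members the call of Ccr7 was lost without PPCA day 2, vehicle day 3, vehicle day 4 or PPCA day 4, and that of Lef1 without these or the onset library. Itgae is itself detected in some naive CD8 T cells, and the authors' deposited table lists it for their CD8 TCM cluster, where it was found in a fraction of 0.18 of cells, beside the CD8 TRM TEM cluster at 0.201. The direction of Lef1 and Ccr7 thus changed with the Ccl5 minimum and with Cxcr6, so no direction is read for them. That of Eomes, Gzmk, Klre1, Cdh1 and Qpct stayed the same under these and under thinning.

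**Figure D3:**
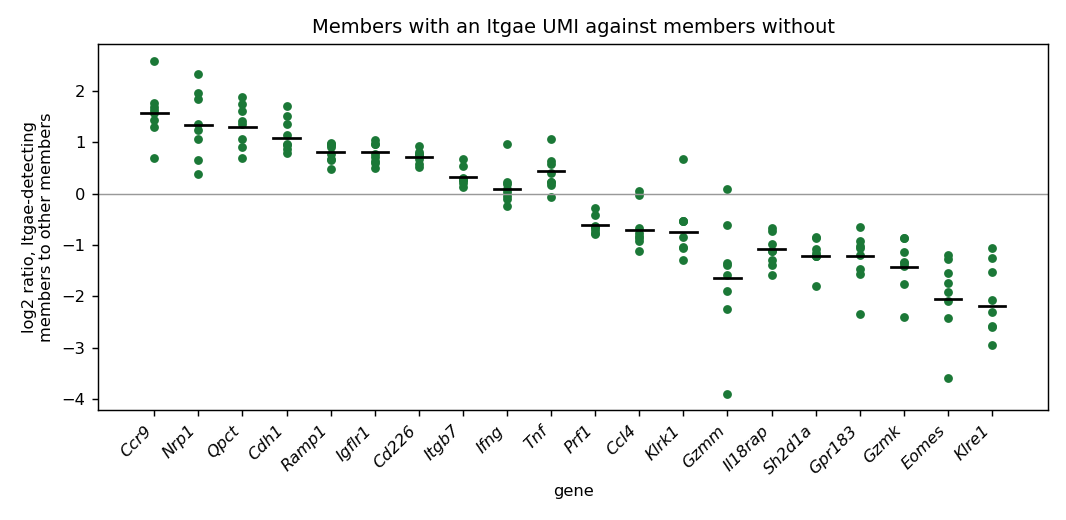
log2 ratio of TMM-scaled CPM with 1 added (vertical axis) of members with an Itgae UMI to members without, for 20 genes; points are 8 libraries and the bar is the fitted difference. All 8 points of Ccr9, Nrp1, Qpct and Cdh1 lie above 0 and all 8 of Eomes, Gzmk and Klre1 below.

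RefSeq promoters were matched for 78 of the 100 genes higher and 91 of the 115 lower with Itgae. TGTGGT, the RUNX core, was found in 14.1% and 24.2% of them, against 12.0% of the 6075 promoters of the genes tested with Itgae. GGTGTGA, the T-box core, was found in 2.56% and 6.59%, against 3.23%, and TGACTCA, the AP-1 site, in 3.85% and 5.49%, against 3.00%. The Gzmk promoter shown above is 1 of the 6 with GGTGTGA in the lower group. For genes higher and lower in members than in cells without a residency gene, TGTGGT was found in 13.3% and 12.8% against 12.0% of 6874 promoters. There GGTGTGA was found in 4.89% and 2.46% against 3.19%, and TGACTCA in 3.51% and 3.47% against 3.00%. These shares are descriptions without a test.

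Set beside the authors' deposited table, which was made from these libraries and is no independent evidence, 497 of the 688 CD8 TRM TEM genes tested here (72.2%) were higher in members than in cells without a residency gene and 10 were lower, against 12% higher over all genes. Genes of other clusters were often higher too, 219 of 414 for CD4 Th17 (52.9%) and 210 of 546 for CD4 Treg (38.5%). Of 85 CD8 TCM genes 56 (65.9%) were lower, beside 42 of 49 for CD4 Naive (85.7%), 109 of 175 for CD4 Th0 (62.3%) and 13.4% over all genes. Shares above those over all genes were thus not limited to the CD8 clusters. In that table Ccl5 has a log2 fold change of 6.77 and Cxcr6 of 2.87 in the CD8 TRM TEM cluster.

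The share of CD8-gated cells that were members was 13.0% in the active library (exact 95% interval 11.8 to 14.3%) and 25.9% in the onset library (24.1 to 27.8%). Under vehicle it was 17.7%, 9.10% and 11.0% on days 2, 3 and 4, and under PPCA 27.5%, 7.33% and 14.7%. The vehicle mean was 12.6% ± 4.51 and the PPCA mean 16.5% ± 10.2 (SD, n = 3). PPCA was higher on days 2 and 4 and lower on day 3, by a mean of 3.91 points, with p = 0.5 when the signs of the 3 daily differences were permuted (exact, two-sided, smallest possible p 0.25). The day 3 difference was -1.77 points, -0.0918 with cells thinned to 2000 UMIs and +0.105 at 1000 UMIs. At 1000 UMIs PPCA was higher on 3 of 3 days, by a mean of 5.13 points (exact p = 0.25). Leaving out a day gave mean differences from 0.953 to 6.75 points. As a share of Ccl5-positive CD8 cells the direction turned, with a mean difference of -0.404 points and +10.3, -2.00 and -9.51 points on days 2, 3 and 4. Intervals cover counting error only.

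**Figure D4:**
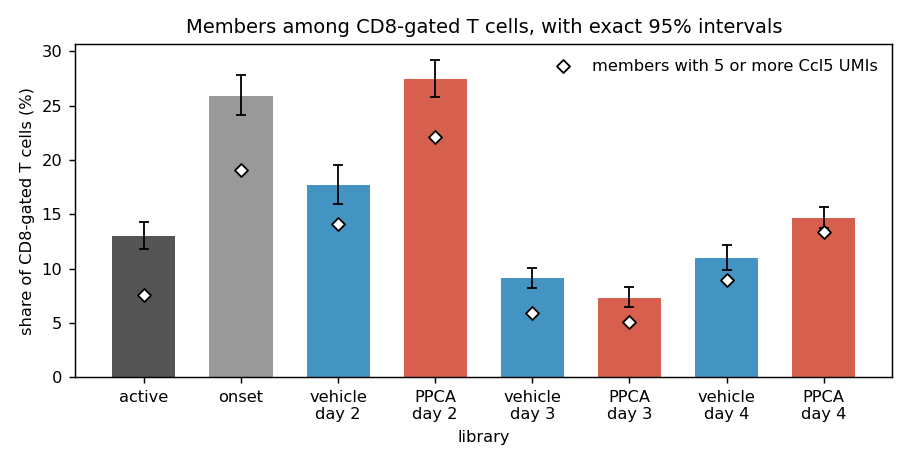
Members as a share of CD8-gated T cells (percent, bars from 0) in the 8 libraries, with exact 95% intervals; diamonds count only members with 5 or more Ccl5 UMIs. The share runs from 7.33% (PPCA day 3) to 27.5% (PPCA day 2).

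What PPCA changed in members was asked within harvest days, with 2 residual degrees of freedom. edgeR called 2 of 9047 genes (0.0221%), Ifit3 higher (0.0111%) and Rps15 lower (0.0111%), with 516 genes at an unadjusted p under 0.05. DESeq2 called 22 genes, none of them on the lists described here, and without the harvest day as replicate block edgeR called 0 (196 at an unadjusted p under 0.05). The count was 137 without the day 4 pair, 37 without the day 3 pair, 0 without the day 2 pair (589 at an unadjusted p under 0.05), 51 with sex-linked transcripts as a further factor and 0 among members with at least 5 Ccl5 UMIs (430 at an unadjusted p under 0.05).

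Ifit3, an interferon-induced gene, was at 21.4, 10.5 and 8.73 CPM under vehicle on days 2, 3 and 4 and at 67.7, 61.1 and 19.1 CPM under PPCA. It was higher under PPCA on all 3 days (+1.83, SE 0.23, edgeR adjusted p = 0.0184). The arms differed in sex-linked transcripts on days 2 and 4, and day 3 has 1 library per arm. It did not pass among members with at least 5 Ccl5 UMIs (+1.49, edgeR adjusted p = 0.0939), without the day 2 pair (+1.98, 0.0744) or at 2000 UMIs per cell (+1.36, 0.18), and its direction stayed the same in all 3. Ifit1 (+1.74, edgeR adjusted p = 0.139) and Bst2 (+0.66, edgeR adjusted p = 0.375) were also above vehicle on 3 of 3 days without passing. Isg15 was at 39.8 and 125 CPM on day 2, 32.9 and 108 on day 3, and 27.4 and 24.0 on day 4 under vehicle and PPCA. It passed without the day 3 pair (+0.88, edgeR adjusted p = 0.0362) and without the day 4 pair (+1.67, 4.42e-18). Fits without a pair have 1 residual degree of freedom, so these p-values say little about the spread between libraries. Both fits keep day 2, whose arms differed in sex-linked transcripts. Of 12 interferon genes tested 1 was called by edgeR and 0 by DESeq2. An unadjusted p under 0.05, counted in either direction, was found for 9, so these are not all higher genes. The median of the 12 was 0.67 against 0.00 over all genes.

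Rps15, a ribosomal protein gene, was at 1816, 3622 and 1817 CPM under vehicle and 929, 2050 and 961 CPM under PPCA (-0.90, SE 0.11, edgeR adjusted p = 0.0184). It was the 1 ribosomal gene called of 87 tested. It did not pass with at least 5 Ccl5 UMIs (-0.83, edgeR adjusted p = 0.157) or without the day 2 pair (-0.87, 0.0607), at nearly the same size.

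PPCA acts on p53 and the cell cycle, and edgeR and DESeq2 called 0 of 14 p53 targets and 0 of 11 cell cycle genes tested, with 1 of each at an unadjusted p under 0.05. Mdm2 was at 46.4, 41.0 and 44.8 CPM under vehicle and 42.2, 39.1 and 58.3 CPM under PPCA (+0.07, SE 0.16). Ccng1 was at -0.11 (SE 0.16) and Mki67 at +0.44 (SE 0.27). Cdkn1a, which encodes p21, did not pass the filter, with 1.09, 1.28 and 14.7 CPM under vehicle and 2.07, 1.60 and 24.5 CPM under PPCA. These rest on 2, 3 and 26 UMIs under vehicle and 7, 2 and 76 under PPCA, so no direction is read on days 2 and 3. It was highest on day 4 in both arms.

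The residency genes had a median of 0.02, and edgeR and DESeq2 called 0 of 22 (6 at an unadjusted p under 0.05) and 0 of 13 cytotoxic genes (4 at an unadjusted p under 0.05). Gzmk was at +0.35 (SE 0.13) and higher on 3 of 3 days, Gzmb at +0.80 (SE 0.37), Ccl4 at -0.10 (SE 0.14), Cd69 at -0.55 (SE 0.28) and Klf2 at -0.31 (SE 0.19), with edgeR adjusted p from 0.758 to 0.947. These values depended on single days. Gzmb was at -0.35 when thinned, at +0.05 without the day 2 pair, and passed without day 3 (+0.92, edgeR adjusted p = 0.0358) and without day 4 (+1.65, 6.9e-06). Cd69 was at -0.02 without day 2 and at -1.09 without day 4 (edgeR adjusted p = 5.24e-13). Klf2 was at -0.07 without day 2 and at -0.69 without day 4 (edgeR adjusted p = 2.22e-05). A fit without a day has 1 residual degree of freedom. Early response genes had a median of -0.39 over 13 genes, with 0 called and 2 at an unadjusted p under 0.05. Adjusted p-values above the threshold do not show that these genes did not differ.

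Rgs1 and Ifng, named after their values were seen, were highest on day 4 in both arms. Rgs1 was at 232 and 281 CPM on day 2, 350.5 and 303 on day 3, and 1737 and 1820 on day 4 under vehicle and PPCA. Ifng was at 72.4 and 85.4, 140 and 94.5, and 522 and 822 CPM in the same order. Harvest day and library cannot be told apart, since each arm has 1 library per day.

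**Figure D5:**
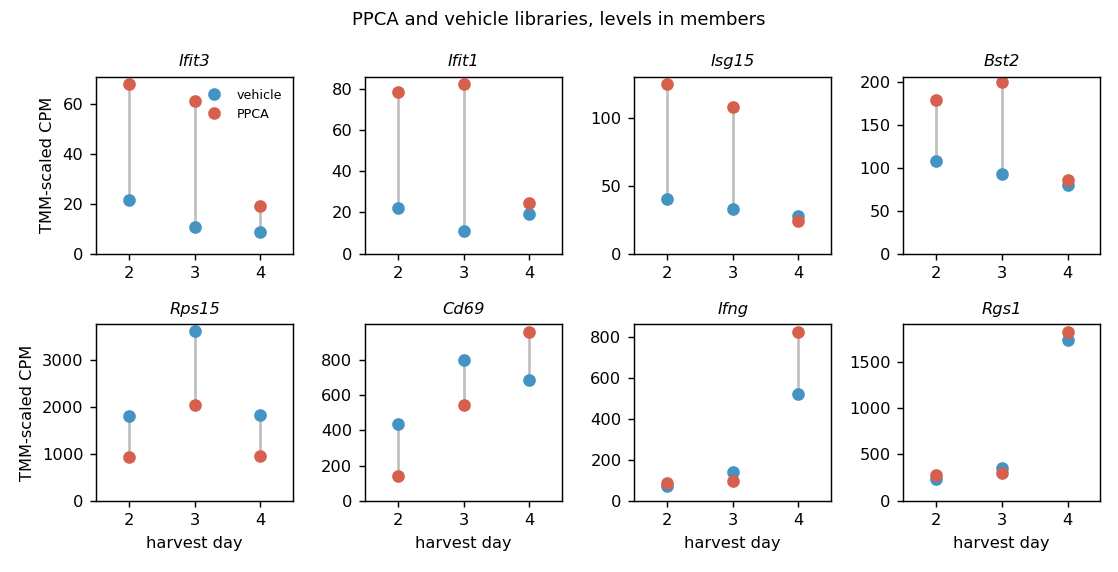
TMM-scaled CPM of 8 genes in members (vertical axes from 0) by harvest day; blue points are vehicle, red points PPCA, and grey lines join the arms of a day. Ifit3 is higher and Rps15 lower under PPCA on all 3 days, and Rgs1 and Ifng are highest on day 4 in both arms.

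Whether PPCA acted on members differently from cells without a residency gene was tested as an interaction. edgeR called 2 of 9113 genes (0.0219%), Ifitm1 lower (0.011%) and Tmem176a higher (0.011%), which are taken up with the closing observations because few cells carried them.

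The active and onset libraries have 1 sample each, so their members were compared without a test. Of 2977 genes that reached 50 CPM in 1 of them or both, 50 (1.68%) differed at least 2-fold, 10 higher in active and 40 higher in onset. With cells thinned to 2000 UMIs the split was 36 to 60, and with a minimum of 20 CPM 46 to 69. Intervals are exact Poisson intervals for counting error. Ccl3 was at 14.4 CPM in active (10.3 to 19.6) and 138 CPM in onset (125 to 152), Ifng at 51.4 (43.3 to 60.5) and 300.2 (281 to 320) CPM, and Ccl4 at 106 and 564 CPM. Nr4a2, an immediate T cell receptor target, and Ctla4 were also among the 5 highest in onset, at 5.25-fold and 5.14-fold.

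Higher in the active library were Gzmm (68.6 against 8.83 CPM), Ms4a4c, Klra1, Hnrnpa0 and Plac8. Of 10 early response genes at 50 CPM or more, 5 were at least 2-fold higher in onset and 0 in active, and of 7 chemokines and cytokines 3 and 0. Members with under 5 Ccl5 UMIs made up 41.9% of members in the active library and 26.3% in the onset library, and their part in these differences was not tested.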

How the data were processed

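Per the labels, T cells were sorted from pancreas, frozen and processed together, and libraries were made with a 10x 3′ version 2 kit. The deposited matrices hold raw UMI counts per gene and barcode made by the authors with Cell Ranger, version 6.0.0 per the file headers and 6.1.2 per the submitters' processing notes. Genome build and annotation were not given in the sources read. The authors' deposited marker table lists, per cluster and gene, the log2 fold change, its adjusted p-value and the detected fraction of cells. It was used only for the values so named.

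The members, gene lists and tests were chosen with earlier results of these data known. The minimum of 5 Ccl5 UMIs, the restriction to members with Cxcr6 and the 6 genes of the B cell and myeloid filter were chosen after seeing the data. Cells were gated on raw counts, and doublets were not removed in the main analysis. For thinned values, cells below the thinned depth were left out and the rest were gated again on their thinned counts. Thinned gates thus differ in cells as well as depth, with 248 members in the active library against 377. An alternative dropped cells with more than 1 UMI over those 6 genes and the top Scrublet scores (scanpy 1.11.5, 0.8% per 1000 barcodes). UMIs were summed per library and gate, with at least 20 cells a sum, filtered with filterByExpr, scaled by TMM and fitted with edgeR 4.0.16 in R 4.3.3 (glmQLFit, glmQLFTest), with the library as block for contrasts of gates (7 residual degrees of freedom) and harvest day for PPCA. TMM factors are set within a comparison, so a level can differ slightly between comparisons. The Benjamini-Hochberg adjustment ran over all genes tested, at 0.05, and the 18 rule genes were left out of every count. Fits were tested on simulated data. A few genes counted in the lists are not reported here by name.

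Harvest day, from the labels, pairs the arms. The deviations of the libraries of a day from the means of their arms correlated at 0.199, 0.521 and 0.517 for days 2, 3 and 4 over 5511 genes, though the vehicle library of day 2 correlated more with the PPCA library of day 3 (0.348). Genes named were list genes past the threshold and the 10 highest and 10 lowest log2 differences that moved the same way in every library and averaged at least 20 CPM. For PPCA, Cdkn1a, Mdm2, Ccng1, Mki67, Ifit3, Isg15, Gzmb, Gzmk, Ccl4, Cd69 and Klf2 were named in any case, and for active against onset the 5 highest and 5 lowest ratios. Ifit1, Bst2, Rgs1, Ifng, Zfp683, Trdc and the genes below threshold beside a named one were chosen after their values were seen. Alternatives were DESeq2 1.42.0 and its size factors, no low-count filter, no block, thinning to 2000 UMIs, stricter membership, sex-linked subsets and leaving out libraries.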

Additional observations from a re-analysis of the deposited data

Results flagged for a closer look

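The test of a difference in PPCA effect between members and cells without a residency gene passed for 2 genes. Ifitm1, an interferon-induced membrane gene, had a PPCA effect lower in members than in Ccl5-positive CD8 cells without a residency gene by -8.07 on the log2 scale. It rested on few cells: in the order of days 2, 3 and 4, vehicle libraries held 4, 0 and 8 members with an Ifitm1 UMI and PPCA libraries 2, 0 and 10, and the comparison cells had 0 UMIs in all of these libraries except PPCA day 4, with 37 UMIs in 5 cells. Tmem176a, a membrane gene, had a PPCA effect higher in members by 4.92, with UMIs in 1, 4 and 1 members under vehicle and 4, 0 and 9 under PPCA. In 1 cell of the vehicle library of day 2 outside the members there were 14 Tmem176a UMIs. DESeq2 called neither, with 0 genes past the threshold and 17 at an unadjusted p under 0.05. The fitted sizes of genes with so many zeros depend on the prior count and are no bounds.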

How the results depend on the processing

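The contrast with cells lacking a residency gene called 2187 genes, 1231 by DESeq2, 766 with no replicate block, 1454 at 2000 UMIs per cell, 1091 in the 4 libraries with Y-linked transcripts and 1891 to 2207 with a library left out. That with checkpoint-bearing cells called 1202, then 616 with no block, 148 thinned, 755 with 5 Ccl5 UMIs, 771 and 522 in libraries with Xist and with Y-linked transcripts, and 974 to 1262 with a library left out. That with Ccl5-negative cells called 3808, then 2104 with no block, 2297 with Y-linked transcripts and 3382 to 3737. The Itgae contrast called 215, then 94 by DESeq2, 345 with no low-count filter, 29 with no block, 97 thinned, 442 among members with Cxcr6, 70 with Y-linked transcripts and 159 to 213. For PPCA the count of 2 became 22 by DESeq2, 89 with no filter, 0 with no block, 9 thinned, 6 with 2 residency UMIs, 0 with 5 Ccl5 UMIs, 51 with sex-linked transcripts as a factor and 0, 37 and 137 without days 2, 3 and 4. The interaction count of 2 became 0 by DESeq2, with no block and thinned (17, 75 and 266 at an unadjusted p under 0.05), 12 with no filter, 1 without lineage UMIs and doublets, and 1 to 5 with a day left out. The share difference of 3.91 points ran from 0.953 to 6.75 with a day left out and was -0.404 as a share of Ccl5-positive cells. Active against onset gave 96 genes thinned and 115 at 20 CPM. The cause of these moves was not tested.

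Directions that turned among all genes under the naming rule, including some given no value above, were, against cells lacking a residency gene, Il18rap (-0.0065 thinned, -0.20 with 5 Ccl5 UMIs), Gzma (-1.50 thinned) and Igfbp4 (0.53 with 5 Ccl5 UMIs); against checkpoint-bearing cells, Icos (0.0253) and Tcrg-C2 (0.0589) thinned, Ctrb1 (0.24, Xist) and Serpinb6b (0.0679, Y-linked); against Ccl5-negative cells, Bbc3 (-0.0371 thinned) and Egr2 (0.0612, Y-linked). For Itgae they were Itga6 (-0.12) and Lef1 (-0.015) thinned, and Lef1 (-0.34) and Ccr7 (-0.22) with 5 Ccl5 UMIs, and Lef1 (-0.29), Ccr7 (-0.29) and Igfbp4 (-0.0018) among members with Cxcr6. For PPCA they were Ccl4 (0.12 no block, 0.0647 without day 3), Gzmb (-0.35 thinned), Mdm2 (-0.0511 thinned, -0.0418 with 2 residency UMIs, -0.18 with 5 Ccl5 UMIs, -0.11 without day 4) and Ccng1 (0.0619 without day 4). The direction of the member share turned with Ccl5-positive cells as the denominator. Genes of few UMIs and calls on 1 UMI have wide counting error at this depth.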

Other observations

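The CD8 cells that had a residency gene without Ccl5 outnumbered the members, at 6192 against 3674. The cells with 2 or more checkpoint genes had the most Ccl5, with 100 or more UMIs in 37.8% of them against 9.66% of members. Gene expression of the cells with a residency gene and no Ccl5 was not compared.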
